A study of Mus musculus with 6 samples.

Results

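The genes of the amyloid precursor protein (APP) family and of the secretases that cut it were examined in the RNA-seq of HT22 cells exposed to aluminum (Al). Members were chosen by symbol in the deposited FPKM table (a read count divided by transcript length and sequencing depth) and comprised App, Aplp1 and Aplp2 for the family, Bace1 and Bace2 for β-secretase and its homolog, and Psen2, Ncstn, Aph1a and Psenen for the γ-secretase complex. These were 9 of 21878 genes in the table. HT22 is an immortalized mouse hippocampal neuronal cell line, so each value comes from 1 dividing cell line and not from neurons of an animal. The control group held 3 libraries without aluminum maltolate, and the Al group held 3 libraries from cells given 120 µM aluminum maltolate, the aluminum salt of the food additive maltol, for 24 h. Dose and time were taken from the study's methods, which name a control in DMEM only and a separate maltol control. The study calls the sequenced untreated group control, and a maltol group was not analysed here, so aluminum and its ligand cannot be told apart here. The study reports that in preliminary work maltol alone did not significantly change viability or senescence markers of these cells. All 6 were input libraries of an m6A immunoprecipitation experiment, that is, fragmented RNA that had not been enriched for m6A, and the study describes them as biological replicates. The labels name no transgene or genetic change in either group.

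APP is a single-pass membrane protein that can be cut along either of competing routes. α-Secretases, mainly ADAM10, cut inside the amyloid-β sequence and release the soluble ectodomain, whereas BACE1 cuts at the start of that sequence and leaves a stub from which γ-secretase releases amyloid-β. γ-Secretase is a membrane complex of a catalytic presenilin such as PSEN2, nicastrin, an APH1 protein and PEN-2, and it also cleaves Notch receptors and many other membrane proteins.

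The members moved in different directions. App rose 2.35-fold, Aplp2 1.85-fold and Psenen 1.64-fold in the Al group, whereas Psen2, a catalytic subunit of γ-secretase, fell 3.99-fold. The decrease of Psen2 was called under each of 4 scalings of the libraries, the increase of App under 3, and the calls of Aplp2 and Psenen under 1, with Psenen turning to a log2 fold change of -0.08 when libraries were set to equal sums. Ncstn, Aph1a and Bace1 were not called. Aplp1 and Bace2 had almost no reads in any library. Folds are on the scale of log2(scaled FPKM + 0.1), where scaled FPKM is FPKM divided by a size factor of each library, and this scale understates changes of low genes. Calls required an unadjusted limma P under 0.05 together with an absolute log2 fold change over 0.58, and adjusted P values are Benjamini-Hochberg values of the limma fit over all 12889 genes tested. Among all tested genes, 26.2% were called higher and 24.4% were called lower. Of the 7 members tested, 3 were called higher and 1 lower, and their median log2 fold change was 0.40 against 0.03 over all tested genes.

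Depth and scaling bear on each of these values. The library totals recovered from the FPKM values were 38059492 to 44556768 reads among controls and 21125631 to 26670978 in the Al group, so the Al libraries were the shallower ones throughout. Size factors ran from 1.17 to 1.20 among controls and from 0.80 to 0.93 in the Al group. Left as deposited, FPKM moved the centre of all log2 fold changes by -0.46, and rescaling each library to an equal sum (TPM) shifted it by -0.75. The share of higher genes among all called genes was 51.8% with size factors, 25.0% with FPKM as deposited, 14.9% with TPM and 47.9% after quantile normalization. Changes are therefore also given below relative to the median of all genes. Size factors, FPKM as deposited and TPM differ only in the factor dividing each library, so their values relative to the median must nearly agree. Their agreement is therefore not further support, and only quantile normalization is free to differ. Shares within a library are also given for the family and the complex, and dividing a library by 1 factor does not alter them (quantile normalization can).

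The label of the cells was checked against marker genes. Of 9 neuronal markers, only Tubb3 and Eno2 had a mean FPKM of at least 1, and Nefm and Snap25 were at 0 in all libraries. The summed neuronal markers ranged from 7.78 to 9.51 FPKM among controls and from 3.98 to 7.73 FPKM in the Al group. All 5 fibroblast or mesenchymal markers had a mean FPKM of at least 1, with sums of 2055 to 3258 FPKM among controls and 2557 to 3543 FPKM in the Al group, most of it Col1a1 and Col1a2. Within this list Col1a1 (log2 fold change 0.92) and Thy1 (1.42) were called higher and Dcn (-1.64) was called lower. The astrocyte markers summed to 14.0 to 23.3 FPKM among controls and 1.56 to 2.70 FPKM in the Al group, with Slc1a3 the most abundant by mean and Aqp4 at 0, and the 6 microglial markers to 39.4 to 49.0 and 22.2 to 72.7 FPKM, nearly all of it Tmem119, with P2ry12 at 0. Slc1a3 was called lower (log2 fold change -2.96) and the low microglial marker Cx3cr1, at 0.0665 FPKM among controls and 0.54 FPKM in the Al group, passed the filter on low values only through the Al group, so its call is not read as a result. The 4 oligodendrocyte markers summed to at most 0.762 FPKM in any library. The part of these differences in the results below was not tested, and in bulk RNA fewer cells of a type and less RNA per cell cannot be told apart.

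The upstream sequences of the member that rose most and the member that fell most, App and Psen2, are shown with that of Aplp2, the family member that rose with App. They come from RefSeq (GRCm38.p6), end just before the annotated start, are written 5′ to 3′ on the gene's own minus strand and carry the GC box GGGCGG, or its complement CCGCCC, in capitals. App is shown for chr16:85173767-85173957, Aplp2 for chr9:31211849-31212098 and Psen2 for chr1:180256301-180256550. For App the last bases before the start, which GENCODE places in an exon, were left out, and the only GC box of App's 250 bases lies among them.
App: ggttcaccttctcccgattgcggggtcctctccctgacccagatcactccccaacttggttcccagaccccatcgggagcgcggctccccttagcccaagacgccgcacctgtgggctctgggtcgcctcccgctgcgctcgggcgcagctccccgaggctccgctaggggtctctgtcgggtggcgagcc
Aplp2: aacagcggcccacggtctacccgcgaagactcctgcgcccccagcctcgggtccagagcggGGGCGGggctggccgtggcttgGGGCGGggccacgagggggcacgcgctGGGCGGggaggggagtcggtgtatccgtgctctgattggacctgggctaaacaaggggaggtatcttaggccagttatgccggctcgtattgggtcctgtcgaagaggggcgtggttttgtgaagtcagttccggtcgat
Psen2: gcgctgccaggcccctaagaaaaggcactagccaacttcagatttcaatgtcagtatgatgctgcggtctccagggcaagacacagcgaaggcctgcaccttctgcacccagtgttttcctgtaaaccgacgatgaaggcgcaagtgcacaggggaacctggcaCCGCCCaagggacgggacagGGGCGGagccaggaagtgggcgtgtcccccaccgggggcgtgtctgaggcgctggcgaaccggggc
The Psen2 window holds 2 GC boxes and the Aplp2 window holds 3. In the RefSeq table, 7 of the 9 members had 9 such windows of 250 bases between them, and 5 of the 9 windows held a GC box on either strand, against 32.7% of all 32851 promoters. None of the 9 held TATAAA on either strand, against 12.4% of all promoters. RefSeq lists a second Psen2 start with no GC box in its window, and GENCODE has a Psen2 transcript that starts farther upstream. These letter matches are descriptions and not sites of a factor.

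**Figure D1:**
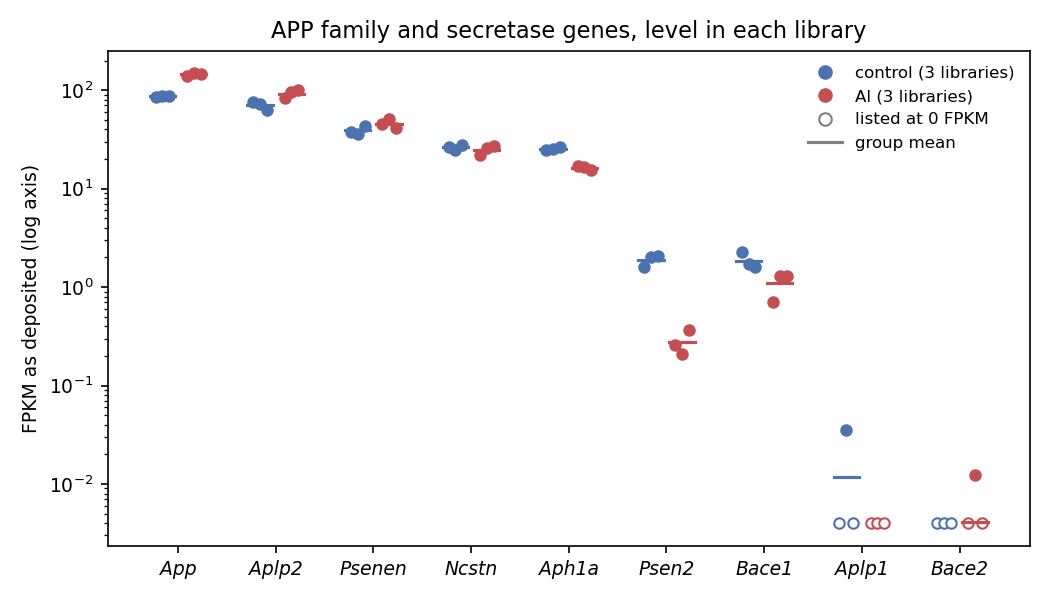
FPKM as deposited of the 9 members in each of the 6 libraries, on a log axis, with control libraries in blue, Al libraries in red, group means as bars and libraries listed at 0 as open circles at the foot. App and Aplp2 lie above the control range in the Al group, Psen2, Bace1 and Aph1a lie below it, and Aplp1 and Bace2 each have 1 library above 0.

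App encodes the precursor of amyloid-β (chromosome 16, 84949685 to 85173766, minus strand, GRCm38). It stood at 85.4, 86.6 and 87.9 FPKM in control libraries and at 140, 149 and 147 FPKM in Al libraries. The groups were far apart and each was tight. The means were 86.6 ± 1.24 FPKM among controls and 145 ± 4.28 FPKM with Al (SD, n = 3 each). In the limma fit the log2 fold change was 1.23 (SE 0.11, 95% interval 0.99 to 1.47, adjusted P = 3.14e-05), which placed App at the 88.1 percentile of all tested genes, so larger increases were common. Between 19114 and 24168 reads lay behind each value, and App's FPKM stood at the 94.6 percentile of all tested genes among controls. With FPKM as deposited the log2 fold change came to 0.74, against 0.65 after quantile normalization and 0.45 with TPM, where it fell short of the fold threshold. Relative to the median of all genes the same values were 1.20 with size factors, 1.18 as deposited, 1.16 with TPM and 0.67 after quantile normalization. App shares 113 exonic bases with the antisense gene Gm49227, and the counting strand is not stated in the sources used here.

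Aplp2 encodes the amyloid precursor-like protein that is cut by the same secretases but lacks the amyloid-β sequence (chromosome 9, 31149557 to 31211815, minus strand). Its values were 75.8, 72.01 and 62.4 FPKM in control libraries and 82.7, 94.97 and 99.7 FPKM in Al libraries. All Al libraries stood above all control libraries, with a wider spread than for App. The means were 70.1 ± 6.94 and 92.5 ± 8.77 FPKM (SD, n = 3 each), and the log2 fold change in limma was 0.89 (SE 0.11, adjusted P = 0.000186). The call was lost with FPKM as deposited (log2 fold change 0.40), with TPM (0.10) and after quantile normalization (0.38), although the sign was kept. Relative to the median of all genes the increase was 0.86 with size factors, 0.83 as deposited, 0.82 with TPM and 0.40 after quantile normalization.

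Aplp1, the family member found mainly in neurons (chromosome 7, 30434982 to 30445535, minus strand), was listed at 0 in 5 libraries. Control replicate 2 had 0.0354 FPKM, which corresponded to 4 reads. A count of 0 allowed up to 3 reads, or 0.0259 to 0.0546 FPKM for Aplp1 depending on the library, an allowance that covers counting error only. A difference between the groups was not detectable at this depth, and Aplp1 was not tested.

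Within the family, App took 53.0%, 54.6% and 58.5% of the summed FPKM of App, Aplp1 and Aplp2 in control libraries. In Al libraries it took 62.9%, 61.0% and 59.5%. The ranges did not overlap, but the nearest libraries differed by little. The mean share was 55.4% ± 2.84 among controls and 61.2% ± 1.71 with Al (SD, n = 3 each). An exact two-sided permutation test gave P = 0.1, the smallest value that 3 against 3 allows (adjusted P = 0.15 over 6 shares, of which 4 had this P).

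The genes whose pattern over the 6 libraries was most like that of App were Ddx24, an RNA helicase gene, Lin7c, a scaffold protein gene, and Trmt44, a tRNA methyltransferase gene. Their centred log2 values differed from those of App by a root mean square of 0.025, 0.043 and 0.044 over the 6 libraries, the smallest among 10348 genes whose FPKM averaged 1 or more. Aplp2 was at rank 928 by this measure, with 0.21, and Psenen at rank 1608, with 0.28. Psen2 was at rank 10123 with 1.63.

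Bace1 encodes the β-secretase that starts the amyloid route (chromosome 9, 45838580 to 45864399, plus strand). It was low, with 2.27, 1.70 and 1.59 FPKM in control libraries and 0.71, 1.29 and 1.29 FPKM in Al libraries. All 3 Al libraries were below the controls in FPKM as deposited, yet the groups overlapped after scaling. The means were 1.85 ± 0.37 and 1.10 ± 0.33 FPKM (SD, n = 3 each). The log2 fold change in limma was -0.28 (95% interval -0.86 to 0.30, adjusted P = 0.358), an interval that holds both no change and a decrease past the threshold. Bace1 was called lower with FPKM as deposited (log2 fold change -0.73) and with TPM (-1.01), whereas relative to the median of all genes it was at -0.31, -0.30, -0.30 and -0.03 with size factors, as deposited, with TPM and after quantile normalization. Bace1 had 301 to 368 reads per control library and 81 to 120 per Al library. It shares 951 exonic bases with Gm49338 and 975 with Rnf214, both on the other strand, Rnf214 being called lower at a log2 fold change of -0.96, and how much of the Bace1 signal came from those bases was not tested.

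Bace2, the homolog of BACE1 (chromosome 16, 97356742 to 97442936, plus strand), was listed at 0 in 5 libraries. Al replicate 2 had 0.0122 FPKM, which corresponded to 1 read. The 3 reads that a 0 allows were worth 0.0180 to 0.0380 FPKM for Bace2, so no comparison was made. Bace1 accordingly made up 100% of the summed BACE signal among controls and 99.7% ± 0.54 with Al (SD, n = 3).

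Psen2 encodes a catalytic subunit of γ-secretase (chromosome 1, 180227004 to 180263438, minus strand) and showed the largest change of the members tested at the pseudocount of 0.1 used here. It stood at 1.58, 2.02 and 2.05 FPKM in control libraries. In Al libraries it stood at 0.26, 0.21 and 0.37 FPKM. No Al library came near the control range. The means were 1.88 ± 0.26 and 0.28 ± 0.081 FPKM (SD, n = 3 each), with a log2 fold change of -1.997 in limma (SE 0.24, 95% interval -2.54 to -1.45, adjusted P = 0.000154). Only 1.96% of all tested genes had a log2 fold change this low. The counts behind this were small: 132, 192 and 200 reads in control libraries and 15, 10 and 17 in Al libraries. Their sums were 524 reads (95% Poisson interval 480 to 571) and 42 reads (30.3 to 56.8), intervals that cover counting error only. Psen2 was called lower under all 4 scalings, at -2.41 as deposited, -2.65 with TPM and -2.03 after quantile normalization. The size depended on the pseudocount, with -0.97 at a pseudocount of 1, where App's 1.22 was the larger change, and -2.27 at 0.01.

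Psenen encodes PEN-2, the small subunit that completes the complex (chromosome 7, 30561863 to 30563627, minus strand). It stood at 37.3, 36.3 and 43.8 FPKM in control libraries and at 45.0, 50.6 and 41.4 FPKM in Al libraries. These ranges overlapped as deposited and separated only after scaling. The log2 fold change in limma was 0.71 (SE 0.14, adjusted P = 0.00261). The call was lost as deposited (log2 fold change 0.22) and after quantile normalization (0.38), and the sign turned with TPM (-0.08), while relative to the median of all genes Psenen was at 0.68, 0.66, 0.64 and 0.41 with size factors, as deposited, with TPM and after quantile normalization. Psenen shares 119 exonic bases with U2af1l4 on the other strand, which had 20.5 FPKM among controls and 11.8 FPKM in the Al group.

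Ncstn encodes nicastrin, the large glycosylated subunit that admits substrates (chromosome 1, 172066013 to 172082795, minus strand). Its values were 26.3, 24.9 and 28.0 FPKM in control libraries and 21.7, 25.8 and 27.2 FPKM in Al libraries. As deposited the groups overlapped, and after scaling the Al libraries were above the controls. The log2 fold change in limma was 0.40 (95% interval 0.16 to 0.63, adjusted P = 0.00885), which was below the fold threshold, so Ncstn was not called. The sign turned with FPKM as deposited (-0.09) and with TPM (-0.39). Ncstn shares 195 exonic bases with Copa on the other strand, which had 84.2 FPKM among controls and 81.2 FPKM in the Al group. Relative to the median of all genes Ncstn was at 0.37, 0.34, 0.33 and 0.23 with size factors, as deposited, with TPM and after quantile normalization.

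Aph1a encodes the main APH1 scaffold subunit (chromosome 3, 95893969 to 95898288, plus strand). It stood at 24.5, 25.4 and 26.5 FPKM in control libraries and at 17.2, 16.4 and 15.3 FPKM in Al libraries. All Al libraries were lower as deposited, and the groups overlapped after scaling. The log2 fold change in limma was -0.16 (95% interval -0.43 to 0.11, adjusted P = 0.276). Aph1a was called lower with FPKM as deposited (-0.64) and with TPM (-0.94), and relative to the median of all genes it was at -0.19, -0.21, -0.22 and -0.27 with size factors, as deposited, with TPM and after quantile normalization. Aph1a shares 445 exonic bases with Car14 on the other strand, which had 0.64 FPKM among controls and 1.40 FPKM in the Al group. The paralogs Aph1b and Aph1c were scarce, with 0.78 ± 0.16 and 0.61 ± 0.10 FPKM among controls and 0.29 ± 0.12 and 0.33 ± 0.10 FPKM with Al (SD, n = 3 each). They are near-identical copies in the mouse, so the split of reads between them is uncertain.

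**Figure D2:**
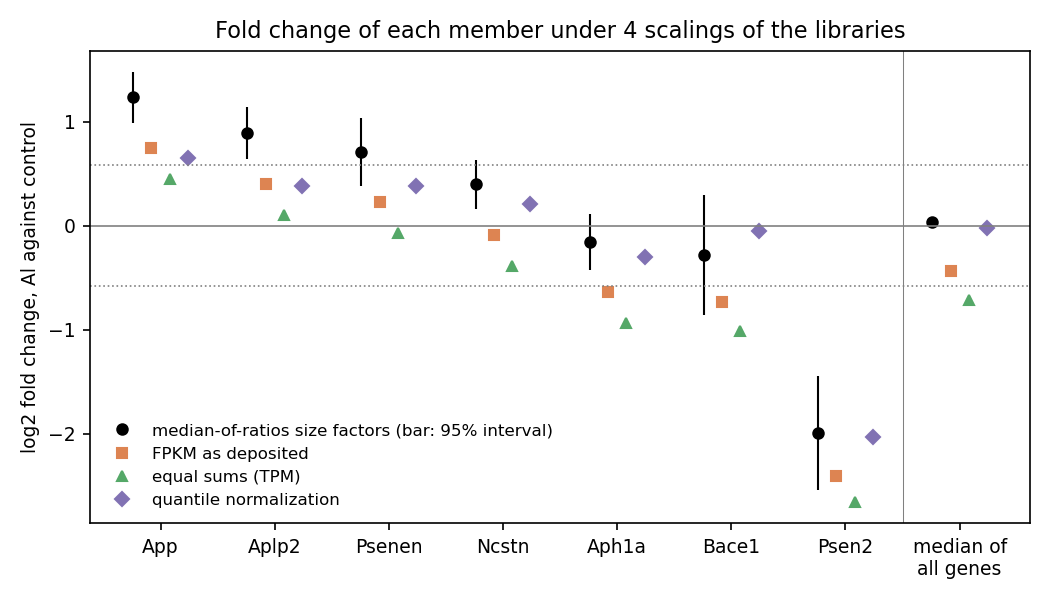
Log2 fold change of the 7 tested members in the Al group against the control group under 4 scalings of the libraries, with the 95% interval of the size-factor fit as a bar, dotted lines at the fold threshold of 0.58 in either direction and the median of all tested genes at the right. Psen2 is below the lower line under all 4 scalings, App and Aplp2 are above 0 under all 4, and every member except Psen2 crosses 0 or a dotted line with the scaling.

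Shares were taken over the 4 γ-secretase genes among the members, without Aph1b and Aph1c, and needed no size factor. Psenen took 41.6%, 40.9% and 43.6% of their summed FPKM in control libraries and 53.5%, 54.4% and 49.1% in Al libraries. Aph1a took 27.3%, 28.6% and 26.4% in control libraries and 20.4%, 17.6% and 18.2% in Al libraries. The ranges were apart for both genes, with Psenen higher and Aph1a lower in the Al group. Psen2 went from 2.03% ± 0.26 to 0.32% ± 0.11 (SD, n = 3 each), also with no overlap. Ncstn held 28.4% ± 0.76 and 28.6% ± 3.31 (SD, n = 3 each), and its ranges overlapped. Computed from reads and not per length, the Al minus control difference was 5.86 percentage points for Ncstn, against 0.16 per length, and 5.49 for Psenen, against 10.3 per length. An exact two-sided permutation test gave P = 0.1 for Psenen, Aph1a and Psen2 (adjusted P = 0.15 over the 6 shares), the smallest value the design allows, and P = 1 for Ncstn. These are shares of RNA per length, not of subunits in the complex.

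**Figure D3:**
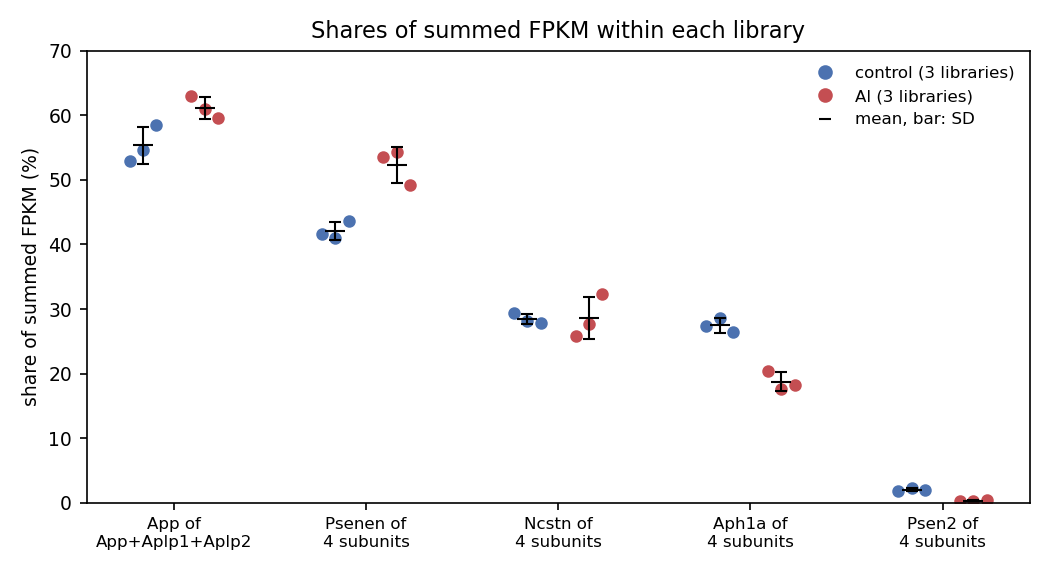
Share of summed FPKM within each library, in percent, for App in its family and for the 4 γ-secretase genes among the members, with 1 point per library and the group mean and SD in black. Control and Al points are apart in all panels except Ncstn, and Psen2 averages 2.03% of the 4 γ-secretase genes among controls and 0.32% with Al.

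Ordered by FPKM, which is per length, both groups had App highest, followed by Aplp2, Psenen, Ncstn and Aph1a. Among controls the ranges of Ncstn and Aph1a overlapped, as did those of Psen2 and Bace1. In the Al group Ncstn was above Aph1a and Bace1 above Psen2 with no overlap. Of the 7 tested members, 5 had scaled values in the Al group wholly outside the control range, against 68.1% of all tested genes, so this count was near the background.

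Other genes of the pathway were counted in 7 lists of 90 genes, of which 67 were tested. Among these, 15 were called higher, a count that includes Nrarp, which passed the filter on low values only through the Al group, and 13 lower, and the median log2 fold change was 0.06. Both shares, 22.4% and 19.4%, were near the 26.2% and 24.4% of all tested genes. The lists below are small, and none was tested against those shares. With FPKM as deposited 5 were called higher and 28 lower, and with TPM 1 higher and 38 lower. The folds below are from the size-factor fit in limma, while FPKM values are as deposited. A fold therefore does not equal the ratio of the FPKM beside it. As deposited, several named increases had ratios of means below the fold threshold. These were Lgmn (1.36), Adam9 (1.12), Adam17 (1.11), Tmed10 (1.24), Appbp2 (1.20), Vps26a (1.30) and Ctsd (1.36). The ratios of Ctsb (1.79), Cd44 (1.64) and Efnb2 (1.57) were above it.

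Among α-secretases and other proteases that cut APP, 3 of 6 tested genes were called higher and 0 lower, with a median of 0.58. Adam10, the main α-secretase, was not called, with 36.1 ± 1.04 FPKM among controls and 27.8 ± 3.44 FPKM with Al (SD, n = 3 each, log2 fold change 0.10, adjusted P = 0.337). Its Al libraries were all below the controls as deposited, and the groups overlapped after scaling, so the sign depended on the scaling. Lgmn, the lysosomal asparagine endopeptidase that cuts APP as δ-secretase, was at 54.2, 56.0 and 55.5 FPKM in control libraries and at 66.9, 74.3 and 84.3 FPKM in Al libraries, a log2 fold change of 0.92 (SE 0.09, adjusted P = 5.88e-05). Adam9, a membrane metalloprotease, rose by 0.65 (adjusted P = 0.00116). Its libraries were also apart as deposited, but the ratio of means was only 1.12 there. The third was Adam17, at 0.64 (adjusted P = 0.000858), whose libraries overlapped as deposited.

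Among the other γ-secretase subunits and regulators, 1 of 6 was called higher and 3 were called lower, with a median of -0.64. Tmed10, a vesicle cargo receptor that also binds the complex, rose by 0.79 on the log2 scale after scaling (adjusted P = 0.000575). As deposited it stood at 34.2 ± 0.96 FPKM among controls and 42.2 ± 3.04 FPKM with Al (SD, n = 3 each), a smaller rise. Rer1, a Golgi retrieval receptor that takes part in γ-secretase assembly, stood at 36.7, 39.6 and 44.2 FPKM in control libraries and at 14.1, 15.7 and 14.0 FPKM in Al libraries, and it fell by 0.97 on the log2 scale (adjusted P = 0.000214). Erlin2, an endoplasmic reticulum membrane scaffold protein, fell by 1.16 (adjusted P = 0.000108), and Aph1b by 0.80 (adjusted P = 0.0442).

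Among intracellular adaptors that bind APP, counted together with the membrane protein genes Itm2b and Itm2c, 1 of 12 was called higher and 4 were called lower, with a median of -0.43. Numbl, an endocytic adaptor related to Numb, stood at 8.10, 6.74 and 5.93 FPKM in control libraries and at 1.07, 1.19 and 1.73 FPKM in Al libraries, and it fell by 1.85 on the log2 scale (adjusted P = 5.77e-05). Apbb2, of the Fe65 family that binds the APP tail, fell by 0.67 (adjusted P = 0.00138). Appbp2, which binds the sorting signal in the APP tail, rose by 0.75 (adjusted P = 0.000137).

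Among genes that route APP and BACE1 through the cell, 1 of 15 was called higher and 4 were called lower, with a median of 0.04. Vps26a, a retromer subunit, rose by 0.86 on the log2 scale (adjusted P = 7.68e-05), and its partner Vps35 was not called (0.17). Cd2ap, an endocytic adaptor, stood at 13.6, 14.2 and 14.8 FPKM in control libraries and at 2.59, 3.34 and 4.32 FPKM in Al libraries, and it fell by 1.58 (adjusted P = 4.48e-05). Gga1, a clathrin adaptor that carries BACE1 between endosome and Golgi, fell by 1.02 (adjusted P = 4.95e-05).

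Among genes that degrade or carry amyloid-β, 5 of 14 were called higher and 1 lower, with a median of 0.44. Ctsb, a lysosomal cysteine protease, stood at 67.4, 64.6 and 75.9 FPKM in control libraries and at 110, 127 and 136 FPKM in Al libraries, a log2 fold change of 1.33 (adjusted P = 3.09e-05). Ctsd, the lysosomal aspartic protease, rose by 0.93 (adjusted P = 0.000618). The gene called lower was Ide, insulin-degrading enzyme, which stood at 33.4, 30.9 and 33.7 FPKM in control libraries and at 13.3, 14.4 and 11.9 FPKM in Al libraries, and it fell by 0.82 (adjusted P = 0.0008).

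Among other substrates of the secretases, 3 of 12 were called higher and 1 lower, with a median of 0.26. Cd44, a hyaluronan receptor, rose by 1.18 on the log2 scale (adjusted P = 0.000117), and Efnb2, a membrane-bound ephrin, rose by 1.13 (adjusted P = 5.21e-05). L1cam, a neural adhesion molecule, fell by 1.33 after scaling (adjusted P = 0.00158). It was low, and as deposited it stood at 1.80 ± 0.10 FPKM among controls and 0.47 ± 0.17 FPKM with Al (SD, n = 3 each), a larger fall. Of 6 Notch target genes only Hes1 and Nrarp were tested. Hes1 was not called (log2 fold change -1.001, adjusted P = 0.13). Nrarp had 0, 1 and 0 reads in control libraries and 15, 19 and 15 in Al libraries, and it passed the filter on low values only through the Al group, so its call is not read as a result.

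**Figure D4:**
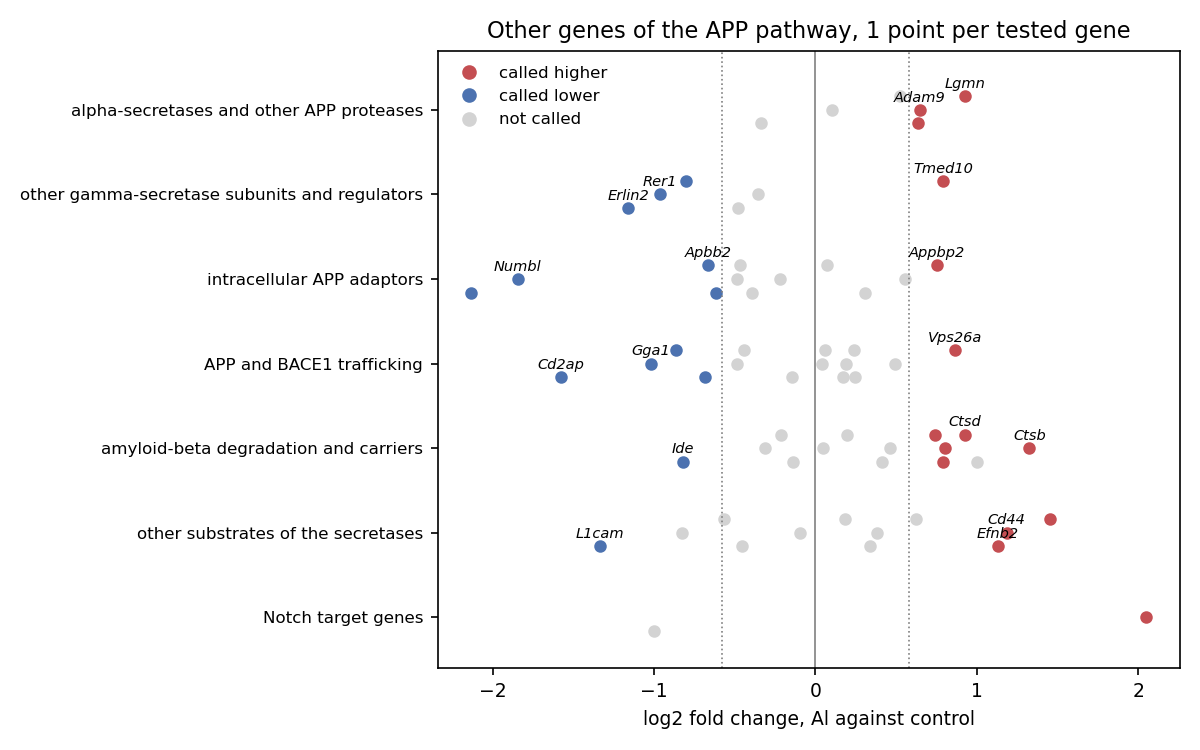
Log2 fold change, Al against control, of the 67 tested genes of the 7 pathway lists, 1 point per gene, with genes called higher in red, called lower in blue and not called in grey, and dotted lines at the threshold of 0.58 in either direction. Both colours appear in the lists of γ-secretase partners, adaptors, trafficking genes, amyloid-β degradation genes and substrates, and the named genes are written beside their points.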

How the data were processed

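The authors sequenced input RNA of HT22 cells with a stranded mRNA kit and deposited FPKM, 1 value per gene symbol and library. The paper names Trimmomatic, SortMeRNA and HISAT2 with GRCm38/mm10, and the submitters' processing notes name fastp, HISAT2, HTSeq and GRCm39. The annotation and the counting strand are not given in the sources used here. The authors called differential genes with DESeq2, which was not run here.

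The letters C and M of the deposited labels were read as control and aluminum maltolate, following the study's naming. Each FPKM equals a whole read number times a factor of gene length and library total, and solving for it gave whole reads, within 0.001 reads, for 99.989% of 17688 expressed genes. The step was tested on simulated data of 2928 genes, of which 96.482% came out exactly. A divisor common to a gene's reads and its length cannot be seen.

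FPKM was divided by median-of-ratios size factors (genes averaging 1 FPKM or more), and log2(value + 0.1) was fitted with limma 3.58.1 (R 4.3.3, lmFit and eBayes with trend) for the 12889 genes averaging 0.1 FPKM or more. Calls used the study's thresholds. With the adjusted P in place of the unadjusted one, 3291 genes were higher and 3053 lower. Simulated data held 11506 genes, of which 200 had a simulated log2 fold change of 2 in either direction. Of these, 100% were recovered, and 0.142% of the others were called. The simulation left out genes with few reads, used 1 dispersion and left all other genes unchanged. It therefore cannot show how well the scaling suits the real data, where far more genes were called, nor how well smaller changes are recovered. Shares were compared by exact permutation. Gene positions are from GENCODE M21 (GRCm38) and upstream sequences from RefSeq.

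The members and lists were chosen with earlier results of these data known. Named genes were the 9 members, from each pathway list the 2 largest increases and decreases among called genes averaging 1 FPKM or more, and the 3 genes most like App. Adam10, Adam17, Vps35, Aph1b, Aph1c, Hes1 and Nrarp were added after their values were seen. 1 gene chosen for the pathway lists was left out of them and is not reported here. The limma P values set a difference against the spread between these libraries, with each gene's spread moderated by that of all genes. The permutation P values come from reassigning these libraries to the groups.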

Additional observations from a re-analysis of the deposited data

How the results depend on the processing

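Psen2 kept its direction and its call under all 17 alternatives and App under 16 of 17, the exception being TPM, with a log2 fold change of 0.45. The alternatives other than scaling changed no member's call: pseudocounts of 1 and 0.01, a mean FPKM of at least 1 or no filter, no trend, voom on the recovered reads and each library left out in turn. With FPKM as deposited, 1805 genes of all were called higher and 5417 lower, 1 member higher and 3 lower, and 5 pathway genes higher and 28 lower. With TPM these counts were 1200 and 6843, 0 and 3, and 1 and 38. Quantile normalization left 1 member and 8 pathway genes called higher. Ncstn turned to -0.088 as deposited and -0.387 with TPM, and Psenen to -0.075 with TPM. These 3 scalings move the median of all genes by -0.46, -0.75 and -0.06, in that order.

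Computed from reads and not per length, the Al minus control difference in share was 5.49 percentage points for Psenen and 5.86 for Ncstn, since a gene's length then sets its weight. Leaving out each library in turn gave 3197 to 3468 genes higher and 2962 to 3295 lower, 3 members higher and 1 lower each time, 15 to 18 and 12 to 17 pathway genes, a Psen2 log2 fold change of -2.11 to -1.88, an App value of 1.20 to 1.30, and an Ncstn share difference of -1.67 to 1.56 points.

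With the replicate number as a block, 3352 genes were called higher and 3123 lower, and no member's call changed. Libraries of the same number did not deviate together (r = -0.033, -0.026 and -0.073 over genes), so the numbers were not taken to pair them. Depth limits Aplp1 and Bace2, which could not be compared, and Psen2, which had 10 to 17 reads in each Al library.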
